A study of Mus musculus with 2 samples.

Results

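The collagen chain genes of the embryonic mouse brain were compared between a knockout (KO) and a wild-type (WT) sample. Members were all genes whose symbol reads Col, a number, the letter a and a number, among probe sets annotated with a single gene symbol. The rule found 42 genes, measured by 82 probe sets, among 18201 named genes on the array. Where a gene had several probe sets, the one with the most signal averaged over the arrays stood for it. By the type of assembly their chains form, 11 genes were grouped as fibrillar, 8 as basement membrane (the type IV chains with Col15a1 and Col18a1) and 23 as other chains.

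The study profiled total RNA of E10.5 embryo brain (midgestation) from strain C57BL/6 on 2 Affymetrix arrays, 1 for the KO sample and 1 for the WT sample. The labels give embryo as the source and brain as the tissue. They give neither the deleted gene nor the embryos' sex, and do not say how many embryos went into each sample. With 1 array per group there is no replicate error and no test, and each difference compares these 2 arrays only.

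Collagens are secreted proteins of 3 intertwined chains, each with a long repeat in which glycine recurs at a fixed spacing. Fibrillar collagens build the fibrils of connective tissue and are abundant products of mesenchyme. Type IV chains form the sheet-like network of basement membranes, which surround the neural tube and its vessels. Type VI, fibril-associated, transmembrane and short-chain collagens organise or anchor these assemblies.

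Differences are given as KO minus WT of log2(signal + 16), called log2 units below. A gene passed the level filter when its higher array reached the median level of all named genes, a signal of 41.6. Of the 42 collagen chains, 19 passed. In bulk tissue, fewer cells of a type and less RNA per cell cannot be told apart.

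The arrays differed at sex-linked transcripts along with the genotype labels. Xist, which silences an X chromosome in female cells, read 2023 in KO and 5.19 in WT, and the Y-linked genes Eif2s3y, Kdm5d and Uty read 0.27, 1.22 and 2.21 in KO against 254, 187 and 90.9 in WT. The genotype and the state of these transcripts cannot be told apart. Neural markers were measured in both arrays, with 8 of 8 progenitor genes and 6 of 6 early neuron genes passing the filter. Of markers of cells that make collagen, 8 of 15 measured head mesenchyme genes, 13 of 17 endothelial genes and 3 of 9 pericyte genes passed, and 0 of 10 muscle genes did. Signals ran from 0.03 to 5983 in KO and from 0.01 to 6549 in WT, with medians of 13.2 in both.

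Upstream sequences are shown for the 5 chains around which the comparisons below turn. Col1a2 and Col3a1 are the fibrillar chains with the highest and the lowest difference among those passing the filter. Col16a1 and Col4a5 are, of the chains passing the filter, the farthest apart between the arrays, and Col4a6 is the head-to-head neighbour of Col4a5. They come from RefSeq promoter windows on GRCm38.p6, printed up to the base before the annotated gene, 5′ to 3′ on the gene's strand. Capitals mark 3 short motifs on either strand, which do not overlap each other here: the TATA box (searched as TATAAA), the CCAAT box (searched by that name) and the GC box (searched as GGGCGG). The stretches are chr6:4505368-4505617 (plus strand), chr1:45311288-45311537 (plus), chr4:130047590-130047816 (plus), chrX:141475169-141475369 (plus) and chrX:141474096-141474326 (minus).
Col1a2: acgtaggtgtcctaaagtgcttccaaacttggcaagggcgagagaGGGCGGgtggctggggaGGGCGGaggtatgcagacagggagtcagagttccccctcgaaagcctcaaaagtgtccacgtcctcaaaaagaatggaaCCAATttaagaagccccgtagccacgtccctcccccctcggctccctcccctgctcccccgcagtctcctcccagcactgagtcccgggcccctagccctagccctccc
Col3a1: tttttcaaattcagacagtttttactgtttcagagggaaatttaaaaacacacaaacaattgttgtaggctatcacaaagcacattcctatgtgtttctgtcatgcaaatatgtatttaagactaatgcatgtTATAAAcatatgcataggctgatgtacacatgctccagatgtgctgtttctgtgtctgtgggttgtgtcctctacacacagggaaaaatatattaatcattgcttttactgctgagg
Col16a1: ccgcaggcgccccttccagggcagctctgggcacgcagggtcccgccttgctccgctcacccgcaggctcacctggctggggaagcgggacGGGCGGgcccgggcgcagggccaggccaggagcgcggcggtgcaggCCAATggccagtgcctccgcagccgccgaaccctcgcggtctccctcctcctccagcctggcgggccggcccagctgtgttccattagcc
Col4a5: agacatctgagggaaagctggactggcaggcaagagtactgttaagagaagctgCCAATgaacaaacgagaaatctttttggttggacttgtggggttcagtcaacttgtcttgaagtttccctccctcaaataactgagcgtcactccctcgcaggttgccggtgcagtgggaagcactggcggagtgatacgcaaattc
Col4a6: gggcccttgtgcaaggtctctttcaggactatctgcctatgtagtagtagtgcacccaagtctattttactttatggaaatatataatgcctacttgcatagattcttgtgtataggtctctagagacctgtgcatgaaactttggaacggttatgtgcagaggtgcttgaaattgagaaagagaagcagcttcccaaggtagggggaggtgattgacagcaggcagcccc

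The 5 stretches differ in composition. That of Col16a1 is 75.7% G and C and that of Col3a1 35.2%. The Col1a2 stretch holds 2 GGGCGG and 1 CCAAT, the Col16a1 stretch 1 of each, and the Col4a5 stretch 1 CCAAT. The Col3a1 stretch holds 1 TATAAA, which begins 117 bases before the gene, and the Col4a6 stretch none of the 3 motifs. Windows were found for 33 of the 42 chains, 36 windows in all, each of 300 bases (250 before the start and 50 after). GGGCGG was present in 22 of the 36 windows (61.1%) and in 35.7% of all 32851 windows in the table. CCAAT was present in 13 (36.1%) against 37.4%, and TATAAA in 5 (13.9%) against 13.6%. These matches describe letters in a window, not bound sites.

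Collagen transcripts were close to level between KO and WT. Over all 42 chains the median difference was 0.049 log2 units, against 0.0011 over all named genes, with 30 chains higher and 12 lower in KO. Of all 18201 named genes, 9159 were higher and 9042 lower, which is the background for the list counts below too. The medians were 0.093 for fibrillar, 0.048 for basement membrane and 0.044 for other chains. The fibrillar median was -0.0047 under a level filter at the 75th percentile. The median of other chains was -0.018 when genes took their median probe set, the lower middle one where their number was even. That rule leans low, with a median of -0.026 over all passing genes. Only 6 of the 23 other chains passed, so that value is no measure of the lean in this class. The sign of such small medians depended on the setting. Of the 19 chains passing the filter, 0 were 1.5-fold or more above WT and 0 were 1.5-fold or more below it. Among the 9299 named genes that passed, 0.85% were higher by that fold and 0.602% lower (1.45% in either direction). These shares are the background for the 1.5-fold counts of the lists below too. Such shares amount to less than 1 gene in 19, so the count does not set the collagens apart.

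At a smaller difference of at least 0.32 log2 units, 2 of the 19 chains were higher, Col4a5 and Col16a1, and 0 were lower. The background at that size was 4.26% higher and 2.72% lower, 6.98% in all, so 2 of 19 rests on too few genes to read as a shift of the family. Probe sets of the same gene differed among themselves with an SD of 0.17 log2 units, over 3628 genes with at least 2 probe sets passing the filter, and the 11 collagen genes of that kind had an SD of 0.16. This spread measures how far probe sets of a gene disagree, from whatever source, and says nothing about animals. It is pooled over dim and bright genes. The main differences of 15 of the 19 passing chains, and of 31 of all 42, were smaller than that SD.

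**Figure D1:**
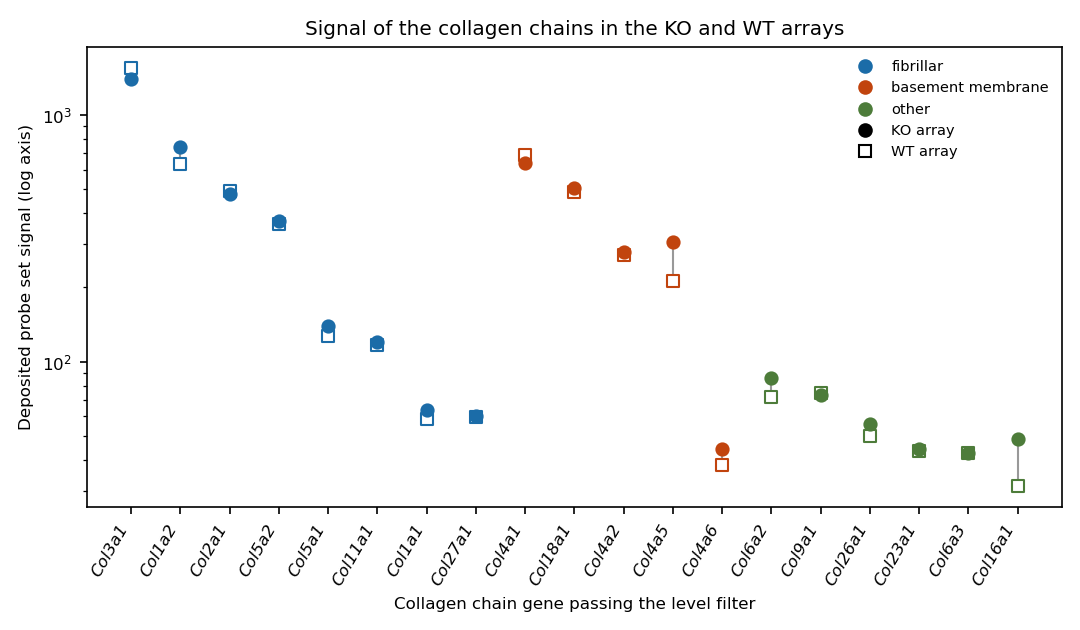
Deposited probe set signal (log axis) of the 19 collagen chains passing the level filter, with filled circles for the KO array and open squares for the WT array, coloured by class. The symbols of most chains touch or overlap, and the widest gaps are at Col4a5 (307 against 213) and Col16a1 (48.4 against 31.3). Signals of different probe sets are not comparable with each other.

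Type I collagen, the main fibrillar collagen of loose and dense connective tissue, is built of chains from Col1a1 and Col1a2. Col1a2 read 745 in KO and 634 in WT, a difference of 0.23. A second probe set of Col1a2 that passed the filter read 223 and 170 (0.36), so both placed KO higher. Col1a1 read 63.7 and 58.7 (0.094), and its other, dimmer probe set read 13.4 and 18.9 (-0.25). The chains of the same molecule thus differed in size, and for Col1a1 the sign depended on the probe set. Of all named genes passing the filter, 14.8% were at least as far from 0 as Col1a2.

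Col3a1 encodes the homotrimeric type III collagen of distensible tissues, which assembles in fibrils with type I. It read 1398 in KO and 1554 in WT (-0.15), the lowest difference among the fibrillar chains. Its second probe set, also passing, read 192 and 169 (0.17), so the probe sets of Col3a1 disagreed in sign. Bright genes as a whole leaned the same way as its main probe set. In the brightest of 4 equal level bins, where Col3a1 lies, the median gene differed by -0.030, and in the dimmest by 0.030. After a loess on level, Col3a1 differed by -0.10.

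Type V collagen sets the diameter of type I fibrils, and its chains hardly differed. Col5a2, the genomic neighbour of Col3a1, read 372 and 363 (0.032), and its second probe set 146 and 143 (0.029). Col5a1 read 140 and 127 (0.13), with 108 and 103 (0.060) on a second passing probe set. Both probe sets of each gene thus had KO slightly higher, by amounts under the probe spread. Col5a3 stayed under the filter, at 13.5 and 11.1.

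The cartilage-type fibrillar chains were measured at this stage, before cartilage forms. Col2a1, the type II chain that is also made by notochord and neuroepithelium, read 477 in KO and 491 in WT (-0.041). Col11a1, which joins type II fibrils, read 120 and 117 (0.026), and 61.5 and 48.9 (0.25) on its second probe set. Col11a2 was under the filter at 18.5 and 11.6 (0.32). Col2a1 and the main probe set of Col11a1 were nearly equal between the arrays. Markers of cartilage precursors and notochord were sparse, with 2 of 6 measured genes (Sox6 and Hapln1) passing. Col27a1, a further fibrillar chain known from cartilage, read 60.3 and 59.9 (0.0056), and Col24a1 was under the filter at 8.19 and 6.68.

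**Figure D2:**
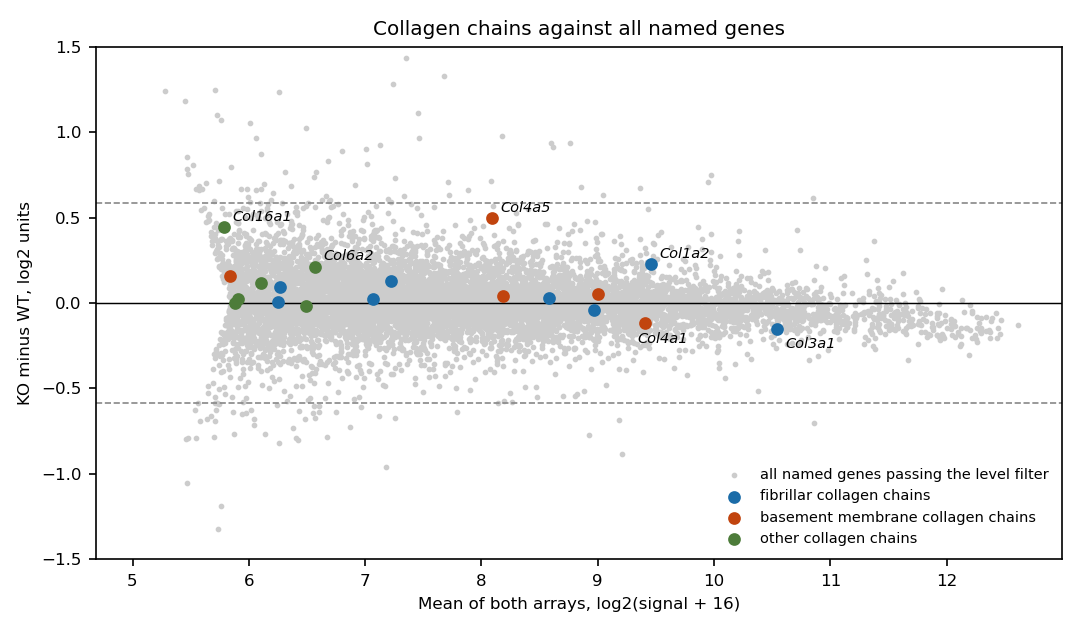
Difference between KO and WT (log2 units) against the mean level of both arrays for the 9299 named genes passing the level filter (grey), with collagen chains coloured by class and dashed lines at 1.5-fold. All 19 collagen chains lie between the lines, from -0.15 (Col3a1) to 0.50 (Col4a5), and 16 genes lie outside the plotted range.

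The ubiquitous type IV network is built of Col4a1 and Col4a2, which are transcribed head to head. Their RefSeq promoter windows lie at chr8:11312777-11313076 (Col4a1, minus strand) and chr8:11312555-11312854 (Col4a2, plus strand) on GRCm38.p6 and share 78 bases. Col4a1 read 638 in KO and 691 in WT (-0.11), and its second probe set 94.4 and 110 (-0.19). Col4a2 read 280 and 271 (0.041) on its only probe set. The neighbours therefore had opposite signs, on main probe sets that differed by less than the SD between probe sets. Endothelial markers, from cells that lay down this network around vessels, had 13 of 17 lower in KO, with a median of -0.045 and summed signals of 1329 in KO and 1384 in WT.

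Among the chains passing the filter, the largest difference was in an X-linked type IV chain. Col4a5 read 307 in KO and 213 in WT (0.50), and 2.36% of the named genes passing the filter were at least as far from 0. Its second probe set, at 83.1 and 78.9, differed by only 0.061. Col4a6, which assembles with Col4a5 in the basement membranes of smooth muscle and some epithelia, read 44.4 and 38.1 (0.16), and 45.0 and 26.6 (0.52) on its second probe set. All 4 probe sets of these neighbours had KO higher, yet in each gene they disagreed on the size by more than the probe spread.

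Both genes lie on the X chromosome, and Xist separated the arrays as given above. The 317 X-linked genes passing the filter had a median difference of 0.019 (quartiles -0.065 and 0.11), with 178 higher in KO. The 8956 autosomal genes had a median of -0.0010, with 4440 higher in KO. Of the X-linked genes, 8 differed by at least as much as Col4a5 towards KO, as did 124 of the autosomal ones. The part of X-linked dosage in the Col4a5 and Col4a6 values was not tested. The remaining type IV genes, Col4a3 and Col4a4, whose chains replace the ubiquitous network in mature kidney and lung, was near background in both arrays (0.91 and 0.69, and 0.83 and 0.53).

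Among the multiplexins, which link basement membranes to the matrix around them, Col18a1 was level. It encodes the precursor of endostatin and read 508 in KO and 488 in WT (0.056), with 241 and 217 (0.14) on its second probe set. Col15a1 was under the filter at 17.9 and 10.9 (0.33).

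Of the remaining chains, 6 of 23 passed the filter. Col16a1, a fibril-associated chain, read 48.4 in KO and 31.3 in WT (0.45) on its only probe set, and 3.0% of passing genes were at least as far from 0. It passed through the KO array alone, as did Col4a6. The remaining fibril-associated chain to pass was Col9a1, of the type IX collagen found on type II fibrils, at 73.5 and 74.4 (-0.016). Its partner chains Col9a2 and Col9a3 were near background, at 1.54 and 0.57 and at 3.58 and 5.08.

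Type VI collagen forms beaded filaments near cell surfaces and is built from the products of Col6a1, Col6a2 and Col6a3. Col6a2 read 86.1 in KO and 72.0 in WT (0.21), but 41.8 and 44.3 (-0.062) on a second probe set of the class that can cross-hybridise. Col6a3 read 42.8 in both (-0.0010), and Col6a1, the neighbour of Col6a2, stayed under the filter at 25.7 and 22.8 (0.11). No shift common to the 3 chains was seen. The further chains Col6a4 and Col6a5 read 3.98 and 0.41 and 0.28 and 6.34, all close to background, so their opposite differences (0.28 and -0.46) rest on signals near background.

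Among the transmembrane chains, Col23a1 passed at 44.4 in KO and 43.4 in WT (0.023), with 39.6 and 43.2 (-0.092) on a second probe set. A further probe set of Col23a1, under the filter, read 17.0 and 25.8 (-0.34). Col26a1, a secreted protein gene with short collagen repeats, read 55.8 and 50.2 (0.12), and its other probe set, near background, 0.5 and 2.97 (-0.20). Col25a1, whose transmembrane product is made by neurons, was under the filter and nearly equal on its main probe set, at 26.4 and 26.8. Its second, dimmer probe set read 3.19 and 14.6 (-0.67), the widest difference of any collagen probe set, at signals near background. The main values of Col23a1 and Col26a1 were within the probe spread.

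The 23 chains under the filter ranged from a difference of -0.46 (Col6a5) to 0.56 (Col20a1), with 16 higher and 7 lower and a median of 0.053. Their highest signal in either array was 26.8. Col20a1, the farthest apart, read 9.46 and 1.24 on its main probe set, and its other 3 probe sets lay at differences between -0.12 and 0.28. On the log2(signal + 16) scale, none of these dim chains reached 1.5-fold on its main probe set. Low signals here bound the comparison and do not show that a chain was not made.

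**Figure D3:**
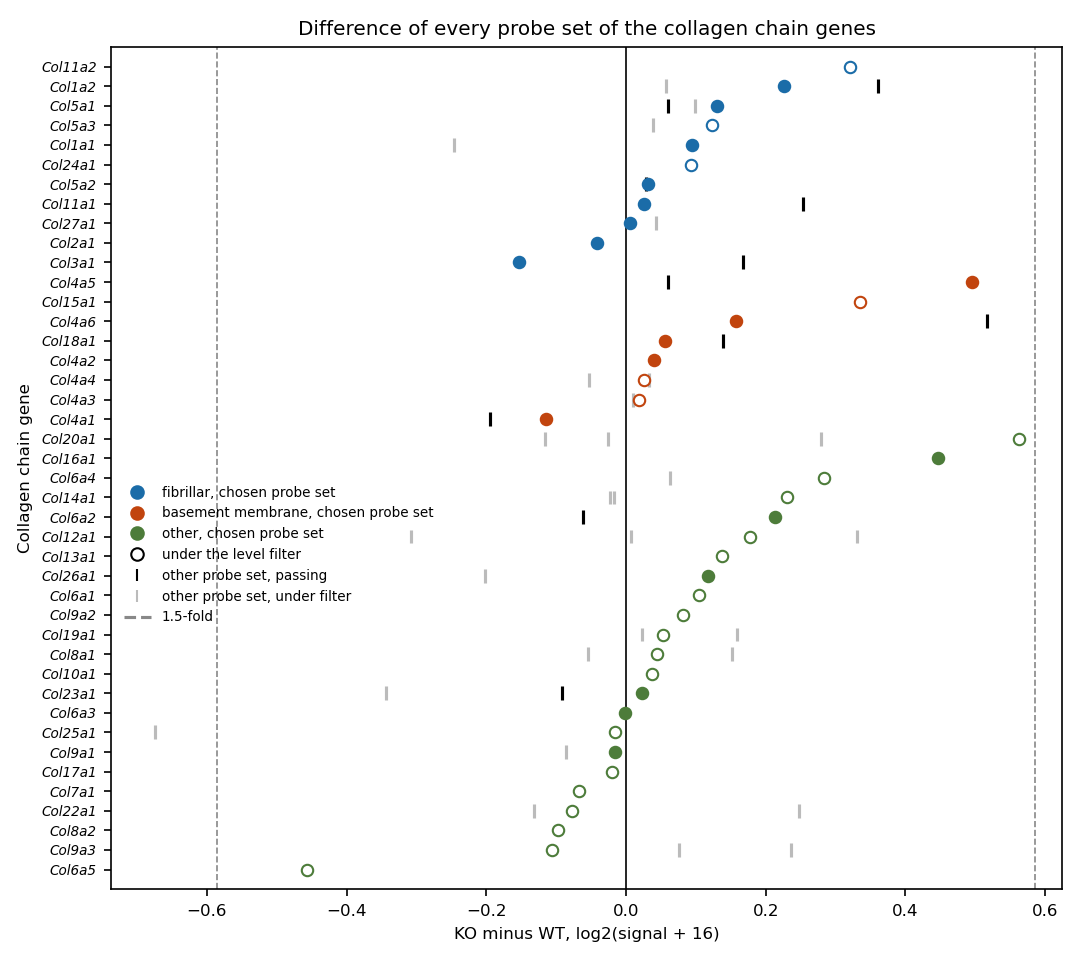
Difference between KO and WT (log2 units) for all 82 probe sets of the 42 collagen chain genes, with circles for the chosen probe set (open where it is under the level filter), ticks for other probe sets and dashed lines at 1.5-fold. Chosen probe sets all lie between the lines, and the black ticks of Col4a5, Col4a6 and Col3a1 lie far from their circles (0.061 against 0.50, 0.52 against 0.16 and 0.17 against -0.15). A dim probe set of Col25a1, under the filter, lies beyond the lines (-0.67).

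Agreement between probe sets can be counted for 11 collagen genes with at least 2 passing. In 8 of them all passing probe sets had the same sign, and in 3 (Col3a1, Col6a2 and Col23a1) they did not. The fibrillar genes Col1a2, Col5a1, Col5a2 and Col11a1 had KO higher on each passing probe set, Col4a1 had KO lower on each, and Col18a1, Col4a5 and Col4a6 had KO higher.

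Genes that fold and modify collagen chains were mostly higher in KO by small amounts. Among the 22 measured members of this list 14 were higher and the median difference was 0.15, against 0.049 for the chains, with 0 of the 19 that passed at least 1.5-fold apart. Plod2, the lysyl hydroxylase of the chain ends, read 117 in KO and 72.9 in WT (0.58), just under 1.5-fold, though its second probe set read 47.3 and 44.3 (0.069). P3h2, a prolyl 3-hydroxylase, read 67.6 and 49.6 (0.35). Serpinh1, the collagen chaperone HSP47, was singled out after its values were seen: it read 1534 and 1232 (0.31), and 1232 and 972 (0.34) on its second probe set. Colgalt1, which glycosylates hydroxylysine, read 158 and 188 (-0.23), and P3h3 56.1 and 64.7 (-0.16). When each gene took its median probe set instead, the list median was 0.0086, against -0.026 over all passing genes in that setting.

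Enzymes that trim procollagen and cross-link fibrils were level. Of 10 measured members, 4 were higher and 6 lower, with a median of -0.0053. Pcolce, the enhancer of C-propeptide removal, read 206 and 180 (0.18), and Bmp1, the C-proteinase, 101 and 95.5 (0.064). Adamts3, an N-proteinase, read 102 and 106 (-0.049), and Loxl1, a lysyl oxidase, 48.5 and 48.6. Lox itself was under the filter at 11.7 and 12.7.

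Of the 17 non-collagen partners of the basement membrane that passed, 1 was past 1.5-fold, against 1.45% of all passing genes. A single gene is too few to read as a shift of the list. Of 26 measured members, 17 were higher in KO and 9 lower, with a median of 0.038. Hspg2, which encodes perlecan, the heparan sulphate proteoglycan of basement membranes, read 156 in KO and 81.5 in WT (0.82). Its second probe set, under the filter, went the other way at 26.5 and 38.4 (-0.36). Dag1, the dystroglycan receptor that binds laminin and perlecan, read 471 and 366 (0.35), and its other 3 probe sets differed by 0.013 to 0.48. Smoc1 and Ntn4 were lower, at 149 against 191 (-0.33) and 68.5 against 86.9 (-0.29).

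Partners of fibrils and of the interstitial matrix had a median of 0.11, with 17 of 25 higher. That median was 0.0035 with the median probe set, 0 with a floor of 16 and 0.26 at a pseudocount of 1. Of the 12 members that passed, 1 was past 1.5-fold. This was Fbln5, an elastic fibre assembly gene, at 42.1 in KO and 17.8 in WT (0.78), which passed the filter through KO alone. Thbs1, a thrombospondin gene, read 66.6 and 52.5 (0.27). Ltbp1, which stores latent TGF-beta in the matrix, was lower at 85.5 and 105 (-0.25), as was Fbln1 at 272 and 307 (-0.16). A second passing probe set of Fbln1 read 145 and 190 (-0.36). Head mesenchyme markers, whose cells make many of these products, had 10 of 15 higher, a median of 0.016 and summed signals of 813 and 761. Twist1 (0.27), Prrx1 (0.23) and Pdgfra (0.18) were among the higher ones, and Tbx18 (-0.39) and Foxd1 (-0.33) among the lower. Prrx1 has 6 probe sets, and those other than its main one, all under the filter, differed by -0.25 to -0.0035. The part of mesenchyme content in the matrix differences was not tested.

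Collagen receptors had 4 of 10 measured members higher and 6 lower, with a median of -0.064 that turned to 0.057 with the mean of all probe sets and was 0 with a floor of 16. Mrc2, the endocytic collagen receptor, read 92.5 and 69.3 (0.35). Adgrg1, the type III collagen receptor of neural progenitors, read 108 and 102 (0.068). The discoidin receptors were slightly lower on their main probe sets, with Ddr1 at 1834 and 2054 (-0.16) and Ddr2 at 41.5 and 48.6 (-0.17). Other passing probe sets of Ddr1 differed by 0.47 (173 and 121), -0.12 and -0.052. Its main probe set and that at 0.47 are of the class that can cross-hybridise. Ddr2 passed the filter through WT alone, and its second probe set, under the filter, differed by 0.34. Of the 5 receptor genes that passed, 0 reached 1.5-fold on their main probe sets. In the turnover list, 9 of 13 were higher with a median of 0.091 (0 with the floor and 0.20 at a pseudocount of 1). Farthest apart among passing genes were the protease inhibitors Timp1, at 52.8 and 36.1 (0.40), and Timp2, at 149 and 122 (0.25). Other passing probe sets of Timp2 read 120 and 109 (0.12) and 117 and 119 (-0.016), so its probe sets disagreed in sign. Timp1 passed the filter through KO alone. Of the 6 turnover genes that passed, 0 were lower on their main probe sets.

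Proteins with a collagen-like repeat that are not collagen chains held the widest differences. Of 26 measured, 12 were higher and 14 lower, with a median of -0.014, and 5 passed the filter. Cthrc1, a secreted protein with a short collagen repeat, read 106 in KO and 21.4 in WT (1.70) on its only probe set. It passed the filter through KO alone. C1qb, a complement subunit with a collagen-like stalk, read 17.7 and 68.4 (-1.33) and passed through WT alone. C1qa and C1qc, under the filter, were lower by similar amounts (-1.46 and -1.33). The C1q genes are macrophage genes, and the other 9 macrophage markers were all lower in KO too, with summed signals of 198 in KO and 438 in WT. Of these 9 markers, 3 passed the filter. The part of macrophage content in the C1q values was not tested. Colec12, a scavenger receptor gene, read 114 and 94.0 (0.24), and Emid1 89.6 and 91.2 (-0.023).

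**Figure D4:**
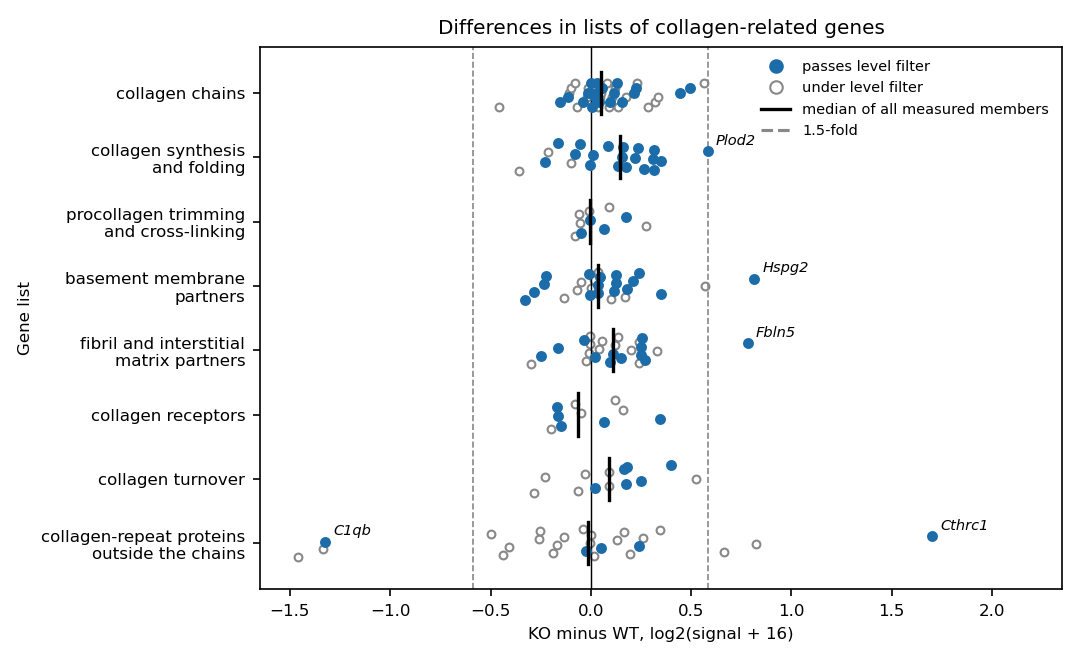
Difference between KO and WT (log2 units) for the measured members of the collagen chains and of 7 related lists, with filled points passing the level filter, open points under it, black bars for list medians and dashed lines at 1.5-fold. List medians lie between -0.064 and 0.15, and the passing genes beyond the lines are Hspg2 (0.82), Fbln5 (0.78), Cthrc1 (1.70) and C1qb (-1.33). Fbln5 and Cthrc1 passed the filter through KO alone and C1qb through WT alone.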

How the data were processed

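The authors deposited linear probe set intensity values, 45101 probe sets by 2 arrays, made with Affymetrix Expression Console per the submitters' processing notes. The summary algorithm is not given in the sources used here. After trimming 2% of values at either end, both arrays had a mean of 100.0, which shows a common global scale. Per the labels' protocols, 250 ng of total RNA went into each biotin-labelled target. The number of arrays, 1 per group, limits the precision.

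Here the arrays were brought to 1 median and values taken as log2(signal + 16), which understates differences of dim genes. Platform annotation gave 34957 probe sets 1 symbol, 920 several and 9160 none, and 34741 of the first were found by Entrez number in RefSeq (GRCm38.p6). The level filter was the 50th percentile of mean log2 level over named genes. No p-value was computed. Text names every chain passing the filter, the X-linked chains and, per related list, the 2 passing genes with the largest difference in each direction and any past 1.5-fold. Other names, among them dim chains and markers, were chosen after their values were seen. Members and lists were chosen with earlier results of these data known. Listed genes with no probe set of 1 symbol were not analysed here. Python 3.11.15, numpy 2.4.6, pandas 2.3.3, statsmodels 0.14.6 and matplotlib 3.10.9 were used.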

Additional observations from a re-analysis of the deposited data

How the results depend on the processing

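No paired analysis was possible because there is 1 array for KO and 1 for WT, which also means that leaving out a replicate was not an option. Alternatives were quantile normalisation, a loess on level (span 0.3), pseudocounts of 1 and 64, a floor of 16, the mean or median probe set of each gene, other level filters and other folds. Those for the related lists were added after seeing the data. The median probe set was the lower middle one where their number was even, which leans low (-0.026 over all passing genes). In the main setting the medians lay between -0.064 and 0.15. Under the alternatives several fell to 0 or turned sign, and the highest reached 0.26. Under the floor, a gene below 16 in both arrays differs by exactly 0. A list with many dim genes can thus reach a median of 0 by construction. The median ran from 0 (floor) to 0.15 (pseudocount 1) for all chains, from -0.0047 (75th percentile) to 0.12 for fibrillar, from 0.033 (type IV only) to 0.19 for basement membrane and from -0.018 (median probe set) to 0.15 for other chains. It ran from 0.0086 to 0.18 for synthesis, -0.024 to 0.030 for trimming, 0.022 to 0.088 for basement membrane partners, 0 to 0.26 for fibril partners, -0.15 to 0.057 for receptors, 0 to 0.20 for turnover and -0.038 to 0.053 for collagen-repeat proteins. The count of chains at least 1.5-fold higher was 1 (Col16a1) at a pseudocount of 1, 1 with the floor and 2 at a threshold of 0.32 log2 units. It stayed at 0 for lower chains under every alternative run. Over 7 alternatives, 13 of the 19 passing chains kept their sign, and Col1a1, Col23a1, Col26a1, Col27a1, Col3a1 and Col6a2 changed it under at least 1. Col6a2 changed it only with the median probe set, which for a gene with 2 probe sets is the one with the lower difference. Col4a5, Hspg2 and Fbln5 also have 2 each. Col4a5 was 0.28 with the mean and 0.061 with the lower probe set. Hspg2 was 0.23 and -0.36, Fbln5 0.48 and 0.18.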
